A study of Mus musculus with 23 samples.

Results

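The integrins other than the platelet receptor alphaIIb-beta3 were followed as 10 genes, Itgb7, Itga4, Itgb2, Itgal, Itgam, Itgax, Itga6, Itgb1, Itga5 and Itgav, among 20145 genes with a probe on a 1-colour expression array. They were chosen by name, with earlier results of these data known. Where a gene had several probes, the one brightest on average was used. All 10 were among the 15202 genes that passed the filter on dim probes and were tested. The arrays held RNA of mouse embryonic stem (ES) cells differentiated into blood in culture. The cells were derived from an ES line labelled C57BL/6 that carries a human RUNX1-ETO cDNA, the fusion gene of t(8;21) leukaemia, under a doxycycline (Dox)-responsive promoter, with both Runx1 alleles intact. Lines were grown from picked colonies, and every group, uninduced ones included, carried the transgene. Cells of the blast culture were sorted at day 2 into haemogenic endothelium (HE, KIT+Tie2+CD41-), HE2 (KIT+Tie2+CD41+) and progenitors (KIT+Tie2-CD41+). Each was taken without Dox or with 0.1 µg/ml Dox from day 1. Myeloid progenitors were floating day 2 cells kept in medium with SCF, Flt3 ligand and thrombopoietin, left uninduced or given 0.1 µg/ml Dox for 12 h from day 2, and harvested at day 3. There were 3 arrays per group of HE, HE2 and myeloid progenitors and 2 per group of progenitors. A further uninduced progenitor array, whose title names it a technical repeat, was normalised but not fitted, and 1 array of induced myeloid progenitors is named a technical repeat in only some of its labels. No array of Dox-treated cells without the transgene was analysed here, so an effect of Dox and an effect of RUNX1-ETO cannot be told apart. These were bulk samples, in which fewer cells of a type and less RNA per cell cannot be told apart.

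Integrins are cell surface receptors, each made of an alpha and a beta chain, that tie cells to matrix proteins and to other cells. The alpha chain encoded by Itga4 pairs with the products of Itgb1 or Itgb7 and binds VCAM1, fibronectin and, with Itgb7, MAdCAM1. It is known for holding blood progenitors to stroma and endothelium. The leukocyte integrins share the beta chain of Itgb2 and take their alpha chain from Itgal (LFA-1), Itgam (Mac-1, CD11b) or Itgax (CD11c). The products of Itga5 and Itgav bind RGD motifs in fibronectin and vitronectin, and that of Itga6 forms laminin receptors with Itgb1 or Itgb4. Endothelial cells use the matrix-binding receptors, whereas the leukocyte integrins appear as cells become blood.

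Between 48.8 and 78.4% of spots were well above background on the 23 arrays, and none was saturated. Runx1t1, the mouse counterpart of the ETO part, read by a mouse probe whose match to the human transgene was not tested, gave 10.56 to 11.14 without and 11.81 to 12.44 with Dox in HE on the log2 intensity scale. It was higher on every induced array than on any uninduced array of the same stage. The endothelial marker list (6 genes) went in summed log2 level from 16.13 to 16.90 in uninduced HE through 15.45 to 15.74 in HE2 and 14.19 to 14.23 in progenitors to 12.96 to 13.52 in myeloid progenitors, while the 5 haematopoietic markers went from 10.50 to 11.60 in HE to 14.85 to 14.97 in myeloid progenitors. The part of such shifts in the integrin values was not tested. Itga2b, which encodes the CD41 of the sort, read 9.49 to 11.46 in uninduced HE, a population gated as lacking surface CD41, and 6.92 to 8.02 in induced HE. The labelled myeloid progenitors held erythroid transcripts as well: the 6 erythroid markers summed to 20.14 to 20.28 there, against 15.10 to 15.45 in uninduced HE.

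In uninduced cells Itga4, Itgb7, Itgb2, Itgal and Itgax rose at 1 or more steps of differentiation, and Itga4 was the first to be called. A gene was called when its unadjusted P in limma was at most 0.001 and its change at least 2-fold, and adjusted P values are Benjamini-Hochberg values over all tested genes. Of the 10 integrins, 1 was called from HE to HE2, against 5.07% of all genes, 4 from HE2 to progenitors (all up), against 5.39% of all genes, and 5 from progenitors to myeloid progenitors (3 up and 2 down), against 13.9% of all genes. With the slide as a block 2 of these last 5, Itgb7 and Itgax, were still called. The median size of change of the 10 was 0.66, 0.93 and 0.98 on the log2 scale in these steps, and 0.26, 0.25 and 0.52 over all genes. Arrays of successive stages did not overlap for 5, 6 and 7 of the 10, against 26.7, 37.3 and 67.9% of all genes.

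Itga4 read 9.03, 8.48 and 7.92 on the 3 arrays of uninduced HE and 10.34, 10.48 and 10.95 in HE2. It reached 11.60 and 11.96 in progenitors and 13.35, 13.11 and 13.08 in myeloid progenitors. No array of a later stage was as low as any of the stage before. From HE to HE2 the gene rose by 2.11 ± 0.287 on the log2 scale (SE; 4.32-fold, adjusted P = 0.000111), by 1.65 within slide 1 and by 3.02 within slide 2. The next step, 1.2 ± 0.321, missed the call with an unadjusted P of 0.00158 (adjusted P = 0.0244), and passed it with the slide as a block (1.21, unadjusted P = 0.000902). The rise of 1.40 ± 0.321 to myeloid progenitors was called (adjusted P = 0.00292) but came to 0.34 with the slide as a block (unadjusted P = 0.548). The myeloid arrays were all on slide 3, which held no uninduced progenitors of the fit. Stage and slide could therefore be separated in this step only through an induced progenitor array and the model, or against the unfitted progenitor array on slide 3, where the difference was 0.75. A second, dimmer Itga4 probe went up in the same 3 steps, by 0.55, 0.43 and 1.57.

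Itgb7, the other chain of the MAdCAM1 receptor, rose later. Its arrays read 6.68, 7.27 and 6.79 in uninduced HE and 7.27, 7.44 and 7.31 in HE2, which overlap. Progenitors were at 9.41 and 9.35, and myeloid progenitors at 12.37, 11.99 and 11.81. The change from HE to HE2 was 0.43 (95% interval -0.24 to 1.09). Itgb7 then gained 2.04 ± 0.354 (4.12-fold, adjusted P = 0.000796) and 2.68 ± 0.354 (6.40-fold, adjusted P = 1.97e-05). With the slide as a block the last step was 3.44, and against the unfitted progenitor array on slide 3 it was 3.43.

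Of the leukocyte integrins, Itgb2, Itgal and Itgax rose from HE2 to progenitors. Itgb2 read 8.34, 8.34 and 8.53 in uninduced HE, 8.75, 8.87 and 9.52 in HE2, 10.61 and 10.68 in progenitors and 11.79, 11.50 and 11.34 in myeloid progenitors. These ranges do not overlap, and the step into progenitors was the one called (1.60 ± 0.211, 3.02-fold, adjusted P = 5.65e-05). The other 2 steps were 0.65 ± 0.189 and 0.90 ± 0.211, short of 2-fold. In uninduced HE all 3 Itgax spots were not well above background (5.11, 5.14 and 5.04), and they were just above it in HE2 (5.47, 5.65 and 5.54). It rose to 7.68 and 7.36 in progenitors, a gain of 1.96 ± 0.210 (3.90-fold, adjusted P = 6.98e-06), and to 10.57, 10.38 and 9.98 in myeloid progenitors, a further 2.79 ± 0.210 (6.93-fold, adjusted P = 3.64e-08). Against the progenitor array on slide 3 that last step was 3.25.

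Itgal, the alpha chain of LFA-1, went up and then down. It read 6.65, 6.27 and 6.29 in uninduced HE, 6.98, 6.96 and 7.25 in HE2, 8.14 and 8.75 in progenitors and 7.87, 7.08 and 7.22 in myeloid progenitors. The rise into progenitors was 1.38 ± 0.241 (2.61-fold, adjusted P = 0.000856), and it was 1.08 and no longer called without 1 progenitor array (replicate 2). The fall of 1.06 on the log2 scale to myeloid progenitors (adjusted P = 0.00282) lies close to the 2-fold limit, and without the same array it was 0.75, uncalled. A second Itgal probe moved the same way in each step, by 0.54, 1.25 and -0.83.

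The matrix receptors took the other direction or did not pass. Itga5, the fibronectin receptor chain, read 10.92, 10.38 and 10.62 in uninduced HE, 10.03, 9.19 and 9.67 in HE2, 10.19 and 9.84 in progenitors and 8.03, 8.14 and 7.97 in myeloid progenitors. It fell by 1.97 on the log2 scale in the last step (3.92-fold lower, SE 0.372, adjusted P = 0.000626), or by 1.1 with the slide as a block, which was not called. The first step, -1.01 ± 0.333, had an adjusted P of 0.0606. Itgav went from 9.26, 9.67 and 10.60 in uninduced HE to 7.95, 8.37 and 7.78 in myeloid progenitors with no step called. Its last step, -0.83, came to 0.55 with the slide as a block, to 0.06 against the unfitted progenitor array and to 0.41 on a second Itgav probe, so its direction is not settled. Itga6 stayed between 13.75 and 14.77 on all 11 uninduced arrays of the fit, and Itgb1, the partner of several alpha chains, between 11.03 and 13.16 without order by stage.

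The Itgam probe with the highest mean showed no course, from 11.42 to 13.49 in uninduced HE to 12.52 to 12.86 in myeloid progenitors, and it scattered widely within groups. The 3 probes of this gene did not move together. A dimmer Itgam probe averaged 7.23 in uninduced HE, 7.13 in HE2 and 7.75 in progenitors, then 9.30 in myeloid progenitors, a gain of 1.55 in the last step, and the third probe lost 0.51 there. No statement on CD11b rests on them.

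**Figure D1:**
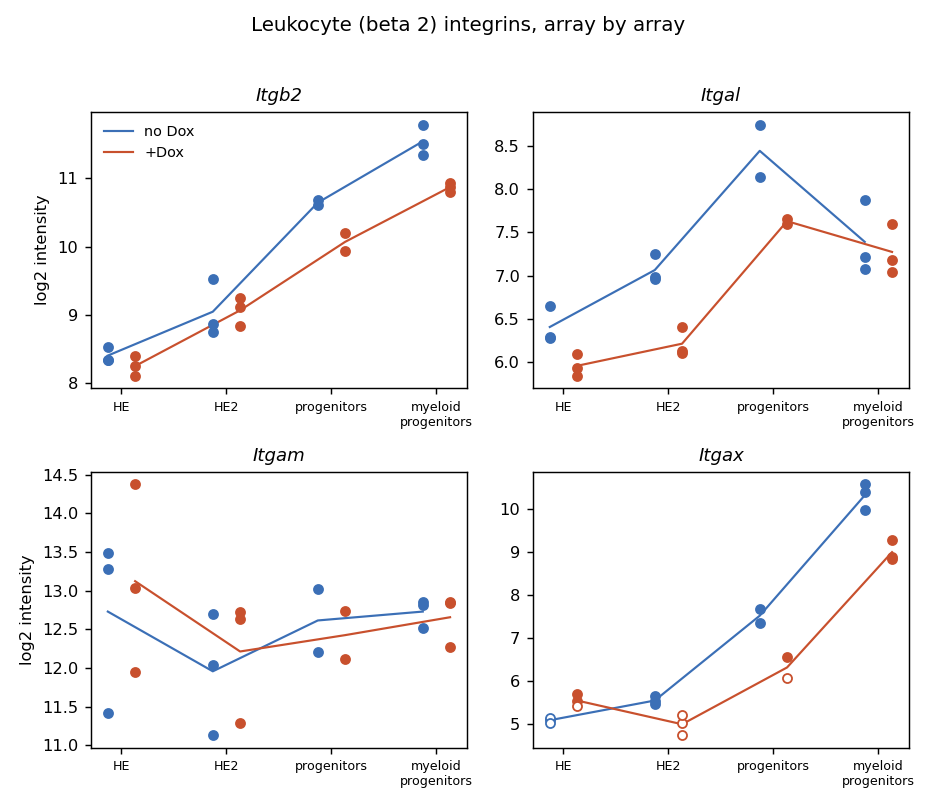
Log2 intensity (y axis) of the leukocyte integrin genes at 4 stages (x axis) without Dox (blue) and with Dox (red). Each point is an array, lines join group means, and open points were not well above background. Itgax rises from 5.10 in uninduced HE to 10.31 in uninduced myeloid progenitors and lies lower with Dox in the last 2 stages. Itgam scatters within groups.

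To show the start sites of the genes that rose most, the promoter windows of Itga4, Itgax and Itgb7 are given from RefSeq (GRCm38.p6), from 250 bases before to 50 bases after the start site, 5′ to 3′ on the strand of the gene. Windows were matched for 7 of the 10 members, all but Itgb2, Itgal and Itga6. Capitals mark the letters of the RUNX motif, searched as TGTGGT or TGCGGT on both strands, which 22.4% of all 32851 windows of this length hold. The windows lie at chr2:79255176-79255475 (plus strand) for Itga4, chr7:128129300-128129599 (plus strand) for Itgax and chr15:102231886-102232185 (minus strand) for Itgb7.
Itga4: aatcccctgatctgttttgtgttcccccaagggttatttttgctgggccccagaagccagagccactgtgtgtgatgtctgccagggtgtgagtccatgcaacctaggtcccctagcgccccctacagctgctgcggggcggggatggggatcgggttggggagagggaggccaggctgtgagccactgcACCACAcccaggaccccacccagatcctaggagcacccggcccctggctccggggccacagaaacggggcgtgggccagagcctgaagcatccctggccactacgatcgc
Itgax: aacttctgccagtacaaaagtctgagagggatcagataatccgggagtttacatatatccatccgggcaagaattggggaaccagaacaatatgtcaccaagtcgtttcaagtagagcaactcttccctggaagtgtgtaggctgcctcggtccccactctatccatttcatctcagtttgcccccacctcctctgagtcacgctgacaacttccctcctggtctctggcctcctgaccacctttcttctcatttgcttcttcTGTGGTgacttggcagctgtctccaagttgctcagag
Itgb7: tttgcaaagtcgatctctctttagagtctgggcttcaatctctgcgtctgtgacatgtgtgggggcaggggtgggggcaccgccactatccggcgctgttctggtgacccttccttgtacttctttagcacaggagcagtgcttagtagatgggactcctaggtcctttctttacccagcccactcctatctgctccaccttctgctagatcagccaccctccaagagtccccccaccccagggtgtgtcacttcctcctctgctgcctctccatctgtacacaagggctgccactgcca
Among the 7 windows, these letters occur in those of Itga4, on the strand opposite the gene with the first base at position -60, and of Itgax, on the strand of the gene at position 14. The window of Itgb7 does not hold them. GAGGAA, letters of the PU.1 motif, searched on both strands, occurs in the Itgb7 window at position 3 on the opposite strand, not overlapping a RUNX match. It also occurs in the windows of Itgam, Itgb1, Itga5 and Itgav, and in 28.3% of all windows. A match is a run of letters and not a measured binding site.

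Dox changed 3 of the 10 genes, each at more than 1 stage: Itgb7, Itga6 and Itgax. In HE, 2 of the 10 were called, both up (Itgb7 and Itga6), against 7.09% of all genes. In HE2 the same 2 genes were called up, against 7.22% of all genes. In progenitors 1 was called, Itgax, which fell, against 3.73% of all genes. In myeloid progenitors 2 were called, Itga6 up and Itgax down, against 6.31% of all genes. Itga4, Itgb2, Itgal, Itgam, Itgb1, Itga5 and Itgav were called in none of these 4 comparisons. From HE to myeloid progenitors, induced and uninduced arrays did not overlap for 4, 5, 6 and 7 of the 10. Over all genes the shares were 25.1, 32.3, 49 and 46.6%.

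Itgb7 had the largest response among the members. In HE its arrays went from 6.68, 7.27 and 6.79 without Dox to 10.02, 10.88 and 11.39 with Dox, so that every induced array was over 2 log2 units above every uninduced one. The change was 3.85 ± 0.316 (14.4-fold, adjusted P = 2.37e-07), 3.04 within slide 1 and 4.35 within slide 2. In HE2 the uninduced arrays at 7.27, 7.44 and 7.31 became 9.22, 8.85 and 10.07, a rise of 2.04 ± 0.316 (4.11-fold, adjusted P = 0.000214), 1.87 and 2.15 within the slides. Progenitors overlapped, at 9.41 and 9.35 without and 10.04 and 9.39 with Dox (0.34, 95% interval -0.48 to 1.15). In myeloid progenitors the 3 induced arrays (10.79, 10.98 and 11.02) all lay below the uninduced ones (12.37, 11.99 and 11.81). That difference, -1.13 ± 0.316, missed the call with an unadjusted P of 0.00221 (adjusted P = 0.0217), and passed it in a fit of these 6 arrays alone (unadjusted P = 0.00021). Induced HE, at 10.77 ± 0.69 (SD, n = 3), thus had an Itgb7 level above uninduced progenitors (9.38 ± 0.04, n = 2) and below uninduced myeloid progenitors (12.06 ± 0.29, n = 3). The Dox response differed between stages when tested directly: by -4.98 ± 0.447 between myeloid progenitors and HE (adjusted P = 7.29e-06) and by -1.81 ± 0.447 between HE2 and HE (unadjusted P = 0.00077, adjusted P = 0.0624). The share of all genes called was 4.72% in the former test and 1.34% in the latter. Between progenitors and HE2 the difference was -1.70 ± 0.500 and was not called (adjusted P = 0.236, 0.645% of all genes called).

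Marker lists of other cells moved with Dox in HE too. Of 6 mast cell markers, 5 were tested and 2 rose, Hdc (histidine decarboxylase, by 5.31) and Cpa3 (mast cell carboxypeptidase, by 1.32). The summed log2 level of the list went from between 12.50 and 13.38 to between 14.70 and 15.19, while Fcer1a and Cma1 were not well above background on any induced HE array. Of 5 macrophage markers 2 of the 4 tested rose, Mrc1 by 1.69 and Marco by 1.33, and the summed list was at most 11.49 without and 12.13 to 12.80 with Dox. In HE2 the mast cell list went from 12.78 to 13.38 up to 13.96 to 14.58, with Hdc called, and the macrophage list from 9.71 to 10.24 up to 12.17 to 13.44, with Mrc1 called. The median log2 change of the tested mast cell markers was 0.24 in HE and 0.10 in HE2. That of the tested macrophage markers was 0.61 and 0.11. The rises were thus not shared by all genes of these 2 lists. The 6 erythroid markers summed to 15.10 to 15.45 without and 17.42 to 18.42 with Dox in HE (2 called up), and to 16.26 to 16.69 and 18.48 to 18.75 in HE2 (3 called up). The 6 cardiac and smooth muscle markers summed to 16.67 to 17.87 without and 15.17 to 15.62 with Dox in HE (1 called up and 1 down), and to 14.91 to 16.70 and 13.54 to 13.64 in HE2 (4 called down). Hdc also rose in myeloid progenitors, by 5.43. The part of such cells in the Itgb7 and Itga6 values was not tested.

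Itga6, a chain of the laminin receptors, separated induced from uninduced arrays at each stage, with the induced ones higher. Such separation, in either direction, held for 25.1, 32.3, 49 and 46.6% of all genes from HE to myeloid progenitors. In HE Itga6 went from 14.54, 13.75 and 14.06 to 15.80, 15.31 and 15.52, which is 1.42 ± 0.212 (2.68-fold, adjusted P = 0.000119). In HE2 it went from 14.77, 14.34 and 14.75 to 15.82, 16.08 and 16.56, which is 1.53 ± 0.212 (2.89-fold, adjusted P = 7.44e-05). In myeloid progenitors, after 12 h of Dox, it went from 14.09, 14.33 and 14.12 to 15.80, 15.60 and 15.78, which is 1.55 ± 0.212 (2.93-fold, adjusted P = 5.26e-05). Within slides the HE change was 1.65 and 1.35 and the HE2 change 1.26 and 1.57, and all myeloid arrays shared slide 3. Progenitors showed 0.68 ± 0.260, from 14.16 and 14.30 to 14.93 and 14.90, and were not called (adjusted P = 0.145). No difference in response between stages was called: HE2 against HE gave 0.11 (95% interval -0.52 to 0.74), myeloid progenitors against HE 0.13 (-0.50 to 0.76) and progenitors against HE2 -0.85 (-1.55 to -0.14). The endothelial marker list stood higher with Dox in HE2 (16.45 to 16.66 against 15.45 to 15.74) and in myeloid progenitors (15.26 to 15.53 against 12.96 to 13.52), where 5 of its 6 genes were called up, and overlapped in HE (16.16 to 16.77 against 16.13 to 16.90). The part of endothelial cells in the Itga6 values was not tested.

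**Figure D2:**
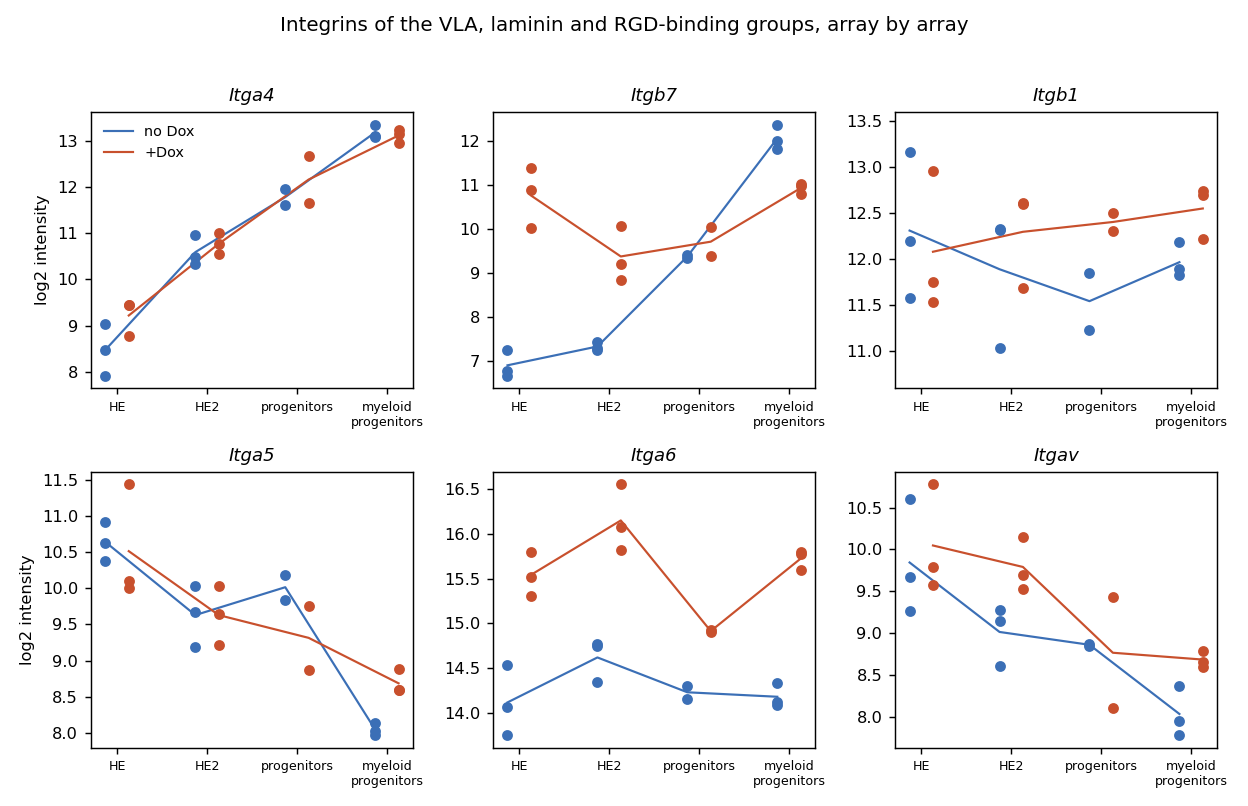
Log2 intensity (y axis) of the other 6 integrin genes at 4 stages (x axis) without Dox (blue) and with Dox (red). Each point is an array and lines join group means. Itga6 lies above its uninduced level at each stage, and the Itgb7 lines cross: induced HE at 10.77 is above uninduced HE at 6.91, and induced myeloid progenitors at 10.93 are below uninduced ones at 12.06.

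Itgax was the member that fell. In myeloid progenitors it went from 10.57, 10.38 and 9.98 without to 8.84, 8.87 and 9.27 with Dox, which is -1.32 ± 0.187 (2.49-fold lower, adjusted P = 8.14e-05). In progenitors it went from 7.68 and 7.36 to 6.56 and 6.08, the last not well above background, which is -1.2 ± 0.230 (2.30-fold lower, adjusted P = 0.00344). The call in progenitors was lost with the slide as a block (-1.0), within a fit of these 4 arrays alone, and without uninduced array 1 (-1.04) or induced array 2 (-0.96). In HE2 the gene was not well above background on any induced array (5.04, 5.22 and 4.75). The uninduced level there was an estimated 1.46-fold higher (log2 change with Dox -0.55, 95% interval -0.94 to -0.15, adjusted P = 0.0528). In HE it was just above background on 2 of the 3 induced arrays and on no uninduced array (5.54, 5.70 and 5.42 against 5.11, 5.14 and 5.04). The estimate was 1.37-fold (95% interval 0.06 to 0.85 on the log2 scale, adjusted P = 0.121). The dim levels may lie lower still. The 1.46-fold in HE2 is therefore a minimum value in that respect only, not with regard to the spread between arrays. In HE an induced array (5.42) was not well above background either, so the 1.37-fold is not a minimum value. The fitted difference in response between myeloid progenitors and HE, -1.77, is not an exact size, since the uninduced HE level in it was not well above background. On the same myeloid progenitor arrays 4 of 6 megakaryocyte markers fell, 5 of 6 endothelial markers rose, and the summed mast cell list stood at 13.80 to 15.30 with Dox against 11.20 to 11.91 without. Their part in the Itgax values was not tested.

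The beta chain of Itgax did not pass. Itgb2 was lower with Dox in progenitors, at 9.94 and 10.20 against 10.61 and 10.68 (-0.57, adjusted P = 0.169), and in myeloid progenitors, at 10.80, 10.88 and 10.94 against 11.79, 11.50 and 11.34 (-0.67 ± 0.189, adjusted P = 0.0222). The groups did not overlap, as for 49 and 46.6% of all genes, but the differences were under 2-fold. In HE and HE2 the Itgb2 differences were -0.15 (95% interval -0.55 to 0.24) and 0.01 (-0.38 to 0.41). Itgal was lower with Dox on every array of HE, HE2 and progenitors, by 0.45, 0.85 and 0.81 on the log2 scale, none of them 2-fold. In myeloid progenitors it was at 7.60, 7.18 and 7.04 against 7.87, 7.08 and 7.22. Of the 6 myeloid markers, Csf1r and Mpo fell in HE2 and Cd33 in progenitors, and none was called in HE or after the 12 h of Dox. In myeloid progenitors the summed myeloid list was at 16.06 to 16.62 without and 16.11 to 16.40 with Dox. The median log2 change of these 6 markers was -0.27, -1.2, -0.4 and -0.61 from HE to myeloid progenitors. Over all genes it was -0.008, -0.027, -0.044 and -0.018. The part of such shifts in these integrin values was not tested.

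Itga4 was not called with Dox. Its difference was 0.74 in HE (95% interval 0.14 to 1.35, adjusted P = 0.0941), 0.19 in HE2 (-0.42 to 0.79), 0.38 in progenitors (-0.36 to 1.12) and -0.06 after the 12 h of Dox (-0.67 to 0.54). The interval in HE reaches past 2-fold. A second, dimmer Itga4 probe gave -0.07, -0.11, 1.02 and -0.06 over the 4 stages. Itgb1 differed by -0.23, 0.40, 0.86 and 0.59 and Itgav by 0.20, 0.78, -0.09 and 0.65 over the 4 stages. Both genes had arrays of a group over 1 log2 unit apart in HE, which leaves wide intervals there (-1.13 to 0.67 for Itgb1 and -0.57 to 0.98 for Itgav). A second Itgb1 probe gave -0.57, 0.65, 1 and 0.39. For Itga5 the differences were -0.13, 0.00, -0.70 and 0.64, and for Itgam 0.40, 0.25, -0.19 and -0.07. Uninduced progenitor arrays of the fit were on slides 1 and 2, induced ones on slides 1 and 3. With the slide as a block the progenitor differences were -0.17 for Itga4, 0.62 for Itgav, -0.28 for Itga5, 0.92 for Itgb1 and -0.03 for Itgam. A second Itgav probe gave 0.70 there. The direction of Itga4 and Itgav in progenitors is therefore not settled.

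**Figure D3:**
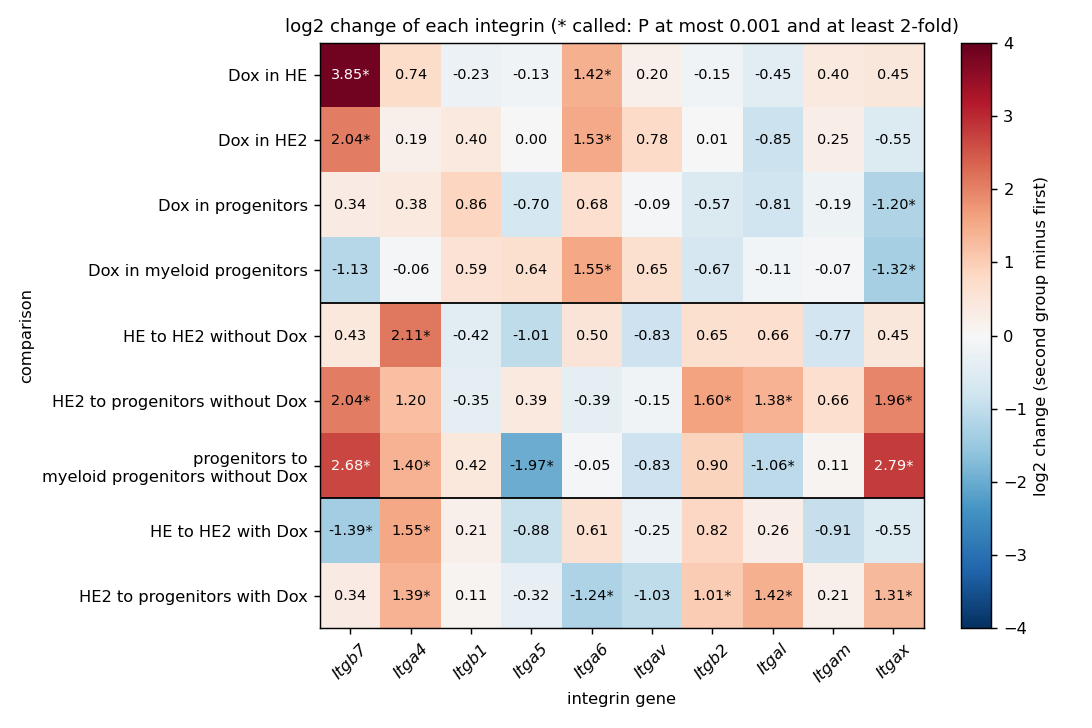
Log2 change of the 10 integrins (x axis) in 9 comparisons (y axis), coloured from blue (lower) through white to red (higher). An asterisk marks a call. Itga6 is called in 3 of the 4 Dox comparisons, Itgb7 and Itgax in 2 each, and along the uninduced stages Itgb7, Itga4, Itgb2 and Itgax are called up only, while Itgal is called up into progenitors and down in the last step.

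In induced cells Itga4 rose and Itgb7 fell from HE to HE2. From induced HE to induced HE2, 2 of the 10 were called (3.1% of all genes): Itga4 rose from 9.45, 9.44 and 8.77 to 10.76, 10.54 and 11.01 (1.55 ± 0.287, 2.93-fold, adjusted P = 0.00265) and Itgb7 fell by 1.39 on the log2 scale (adjusted P = 0.013). The Itgb7 arrays overlapped, at 10.02 to 11.39 against 8.85 to 10.07. From induced HE2 to induced progenitors 5 were called (7.36% of all genes). Itga4 gained 1.39, Itgb2 1.01 and Itgal 1.42, with adjusted P values of 0.006, 0.00294 and 0.00056. The call of Itga4 was lost with the slide as a block (0.83) and without induced progenitor array 2 (0.88) or induced HE2 array 1 (1.38) or 2 (1.28). Itgax was an estimated 2.48-fold higher in progenitors (95% interval 0.87 to 1.75 on the log2 scale, adjusted P = 0.000327). It started from a level not well above background in induced HE2. Itga6 fell by 1.24 on the log2 scale (adjusted P = 0.00151). The Itga6 call was lost with the slide as a block (-1.18) and in a fit of only these groups. The Itgb2 call was lost in 6 alternatives, as with an offset of 50 (0.96). Without induced progenitor array 2, which was on slide 3, 3 of these 5 remained, and without induced HE2 array 1 likewise 3. Itgb7 changed by 0.34 (95% interval -0.41 to 1.08) in this step, where it gained 2.04 without Dox, and that difference is the uncalled test of progenitors against HE2 given above.

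The platelet chains and the other integrin genes were described as a list. Of 14 such genes with a probe, 11 were tested. In HE 2 rose and 2 fell, in HE2 3 rose and 1 fell, in progenitors 3 rose, and in myeloid progenitors 4 rose. The shares of all genes called were 7.09, 7.22, 3.73 and 6.31% in these comparisons, and calls over all genes leaned upwards: 714 of 1078 were up in HE, 786 of 1098 in HE2, 460 of 567 in progenitors and 780 of 960 in myeloid progenitors. Itgb4, the partner of the Itga6 product in its second laminin receptor, rose at every stage: by 2.69, 3.47, 1.5 and 1.51 on the log2 scale from HE to myeloid progenitors (adjusted P = 8.95e-06, 9.76e-07, 0.0247 and 0.00243). Itga8, a chain of RGD-binding receptors, rose by 2.98, 4.31 and 4.09 in the blast culture groups, and Itga3, another laminin receptor chain, by 3.57 in myeloid progenitors. Itga9 rose by 1.63, 1.90 and 1.84 in HE2, progenitors and myeloid progenitors. Itgb5, which pairs with the Itgav product, fell by 2.14 in HE and by 2.27 in HE2 on the log2 scale. Itga2b fell by 3.21 in HE. The median change of the 11 was 0.06, 0.56, 1.07 and 0.81 from HE to myeloid progenitors, beside -0.008, -0.027, -0.044 and -0.018 over all genes.

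**Figure D4:**
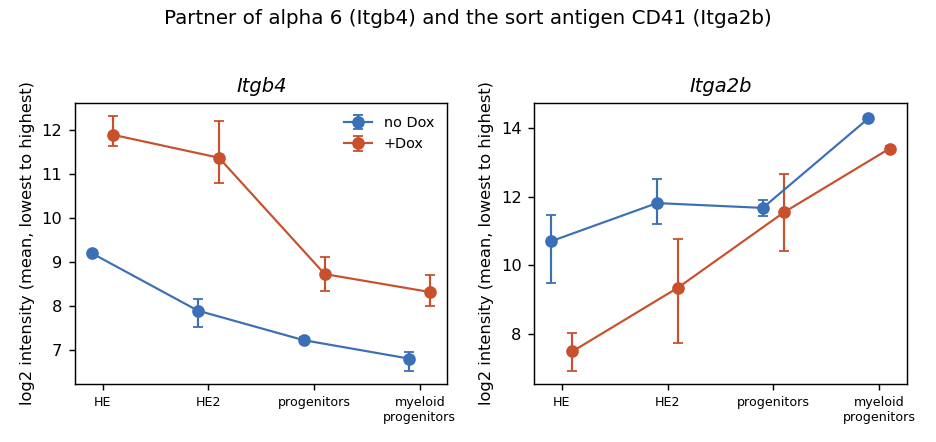
Log2 intensity (y axis) of Itgb4 and Itga2b at 4 stages (x axis) without Dox (blue) and with Dox (red), as group means with bars from the lowest to the highest array. Itgb4 is 11.88 in induced and 9.19 in uninduced HE. Itga2b spans 6.92 to 8.02 in induced and 9.49 to 11.46 in uninduced HE.

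Genes for the partners of these receptors changed in the same cells. Of 35 tested ligands and counter-receptors, 3 rose and 4 fell with Dox in HE, 7 rose and 1 fell in HE2, 6 rose in progenitors and 9 rose in myeloid progenitors, beside the upward lean of all calls and the shares of 7.09, 7.22, 3.73 and 6.31% given above. Madcam1, the ligand of the Itga4 and Itgb7 pair, fell by 1.91 in HE, where Itgb7 rose, and rose by 1.99 in progenitors. Icam2, a ligand of LFA-1, rose by 1.88, 3.21 and 2.97 in HE2, progenitors and myeloid progenitors. Fn1 (fibronectin) rose by 2.13 and 2.07 in the last 2, and Lama5 (a laminin chain) by 2.07 in myeloid progenitors. Edil3, which binds integrins of the Itgav group, rose by 1.43, 2.33, 2.43 and 2.58 at the 4 stages. Without Dox the list went down along the blast culture, with 7 of 35 falling from HE to HE2 and 11 falling and 1 rising from HE2 to progenitors, led by Madcam1 (-4.34), Icam2 (-3.98) and Col1a1 (-3.53). Over all genes 406 of 770 calls were down in the first of these steps and 550 of 820 in the second. From progenitors to myeloid progenitors 5 rose and 6 fell. Its median change was -0.78 and -0.76 in the first 2 steps, beside 0.028 and -0.018 over all genes.

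Genes of the intracellular machinery of integrin activation were called in both directions. Of 54 tested genes, 7 rose and 6 fell with Dox in HE, 7 and 6 in HE2, 3 and 3 in progenitors, and 7 and 1 in myeloid progenitors, where 780 of all 960 calls were up. The shares of all genes called are again 7.09, 7.22, 3.73 and 6.31%. Skap1 (an adaptor of integrin activation) rose by 1.85 in HE, 3.57 in progenitors and 2.04 in myeloid progenitors, and Fermt2 (kindlin-2, which activates beta chains) by 1.19 and 2.15 in the last 2. Rasip1 and Rapgef3, of the RAP1 pathway, rose by 3.05 and 2.77 in myeloid progenitors. Actn1 (alpha-actinin) fell by 1.78 in HE2 and by 1.87 in progenitors. Without Dox, in the 3 steps, 9 genes rose and 5 fell, 10 rose and 6 fell, and 7 rose and 6 fell. The median change of the list was between -0.09 and 0.01 in the 4 Dox comparisons.

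**Figure D5:**
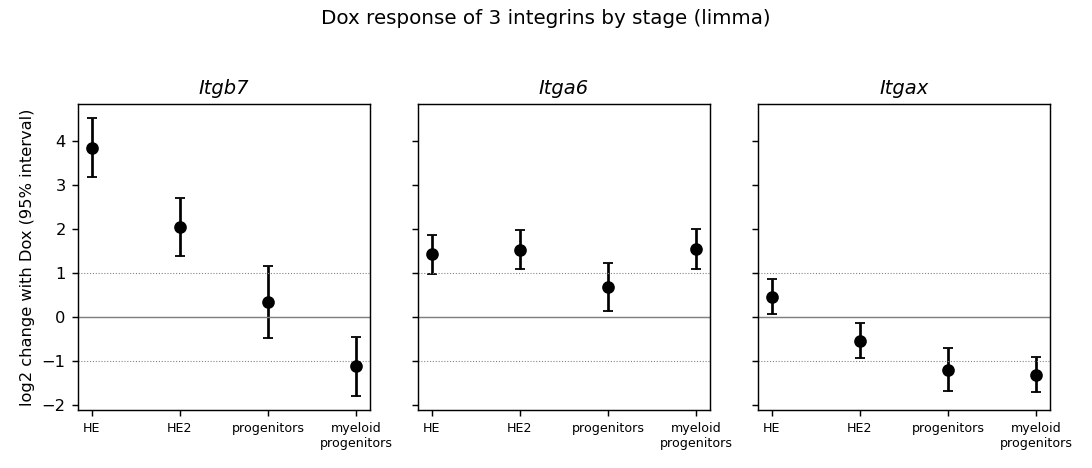
Log2 change with Dox (y axis) of Itgb7, Itga6 and Itgax at 4 stages (x axis), as limma estimates with 95% intervals. Dotted lines mark 2-fold. The Itgb7 estimate goes from 3.85 in HE to -1.13 in myeloid progenitors, that of Itga6 lies between 0.68 and 1.55, and that of Itgax goes from 0.45 to -1.32.

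Over the 8 group means, which share arrays, slides and a single normalisation, the courses of the members are given as Pearson correlations, as a description. Itga4 and Itgb2 correlated at 0.945, Itgb2 and Itgax at 0.923, and Itga5 and Itgav at 0.861, whereas Itgav and Itgb2 stood at -0.930 and Itga4 and Itga5 at -0.901. The highest value of Itgb7 with another member was 0.730, with Itgax. Among all tested genes outside the 10, those closest to Itga4 were Rgs10 (0.998) and Fnbp1 (0.993), those closest to Itgax were Dcstamp (0.996) and Il18 (0.995), and those closest to Itgb2 were B430306N03Rik (0.995) and Cd80 (0.991). The closest to Itgb7 were Adap2 (0.961) and 1810037I17Rik (0.956), and to Itga6 Mphosph9 and Retreg3 (both 0.974). Itgal was nearest to Flad1 and Phf2 (both 0.984), Itga5 to Tmem214 (0.984) and Strn4 (0.981), Itgav to Enox2 (0.992), Itgb1 to Mtmr12 and Dpcd (both 0.96) and Itgam to Tacr2 (0.991) and Oprm1 (0.972). These genes were picked as the highest of all tested over only 8 means. Some changed little: the means spanned 0.47 log2 units for Mphosph9, 0.87 for 1810037I17Rik, 0.90 for Retreg3, 0.91 for Flad1 and 0.92 for Phf2. Others spanned more, as Rgs10 with 5.67.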

How the data were processed

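Total RNA was labelled with Cy3 and hybridised to 1-colour Agilent arrays on 3 slides, scanned on 2 days, and per the file headers spots were read with Agilent Feature Extraction 10.7.3.1 (10.7.1.1 in the submitters' processing notes). The deposited scanner files hold the intensity of each spot and of its local background. The authors also deposited log2 values, background-corrected and quantile normalised per the study's methods, which served as an alternative. In that table the columns of arrays 2 and 3 of induced HE, HE2 and myeloid progenitors are exchanged against the scanner files (rank correlation 0.937 to 0.948 with the own column, 0.996 to 0.999 with the other). Group means are not affected, and the scanner files were followed.

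Here the median signals of the 23 arrays were corrected with normexp (offset 16, which compresses changes of dim spots) and quantile normalised in limma 3.58.1 under R 4.3.3. Outlier spots and 3671 control spots were left out. RefSeq identifiers matched 26582 of 55681 probes to a symbol (table of GRCm38.p6, used for names). The probe with the highest mean stood for its gene, and genes reaching 6.5 on a log2 scale on at least 1 array were tested. A limma model with 8 groups was fitted to 22 arrays, with contrasts for Dox at each stage, for successive stages and for differences of Dox responses, with moderated P values adjusted by Benjamini-Hochberg over all genes. The pipeline was tested on simulated data. P values set each difference against the spread between arrays within groups. That spread was pooled for each gene over all 8 groups and moderated over genes by limma, not taken from the compared groups alone. The labels mostly call these arrays biological replicates. Their number limits the precision.

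The named genes are all 10 members, at most the 3 most changed called genes in each direction per list and comparison, the 2 genes most like each member over the group means, and Runx1t1, Kit, Tek and Itga2b as checks. The values of Fn1, Lama5, Madcam1 in progenitors, and Skap1 in myeloid progenitors were chosen after they were seen. Some genes that this rule names are not reported here. The members and lists were chosen with earlier results of these data known. Replicate numbers paired uninduced HE and HE2 arrays (correlation of deviations 0.394, 0.795 and 0.608). They gave no steady pairing of induced with uninduced arrays when numbered by the scanner files, and the other numbering was not examined for this. Alternatives covered the background offset or none, scaling to the 75th percentile, the deposited values, filters, probe averaging, the adjusted threshold, slide, scan day and replicate number as blocks, the unfitted array, smaller fits and leaving out each array.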

Additional observations from a re-analysis of the deposited data

Results flagged for a closer look

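The Dox response of Itgb7 differed between stages in the test of the difference itself. Between HE2 and HE it differed by -1.81 on the log2 scale, as every induced array lay above every uninduced one in both populations, with a rise of 3.85 in HE and of 2.04 in HE2. This result did not hold at an adjusted P of 0.05, and leaving out 1 array ended the call for 9 of the 12 arrays, with values from -2.18 to -1.5. Between myeloid progenitors and HE the response differed by -4.98, since all 3 induced arrays were higher in HE and all 3 lower in myeloid progenitors. Such separation, in either direction, held for 25.1, 32.3 and 46.6% of all genes in HE, HE2 and myeloid progenitors. The times of exposure differ (12 h in myeloid progenitors, from day 1 to day 2 in HE).

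The Dox response of Itgax differed by -1.77 between myeloid progenitors, where it fell by 1.32 on the log2 scale on 3 of 3 arrays, and HE, where the uninduced arrays were not well above background. The change in HE (1.37-fold, 95% interval 0.06 to 0.85 on the log2 scale) starts from that dim level, so the value is not an exact size of the difference.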

How the results depend on the processing

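Of the 27 changes called among the 10 integrins, 15 stayed called under each alternative run, and 73 of 541 alternative values fell short of the call. None reversed. The calls with Dox in HE and HE2, from HE to HE2 without Dox and between the responses of myeloid progenitors and HE kept their counts. With Dox in progenitors the 1 call became 0 with an offset of 50, 75th percentile scaling, the deposited values, slide or scan day as a block, and a fit of only the groups compared, and leaving out 1 array gave 0 to 1. With 75th percentile scaling 1 of 2 was called with Dox in myeloid progenitors, as Itgax at -1.22 missed the P limit, and 3 were called under the adjusted threshold and in a fit of only those groups, as Itgb7 at -1.13 passed. From HE2 to progenitors without Dox 3 to 5 of the 10 were called against 4, and Itga4 passed in 5 alternatives: the adjusted threshold, slide or scan day as a block, the unfitted array added (1.41) and without uninduced HE2 array 3 (1.38). From progenitors to myeloid progenitors the 5 calls became 3 with 75th percentile scaling and 2 with slide or scan day as a block, and 3 to 4 without 1 array (3 without either progenitor array or without myeloid progenitor array 2). Itgal was short of the call there in 11 alternatives. From HE to HE2 with Dox 1 of 2 was left in a fit of only those groups, and 1 to 2 without 1 array, as Itgb7 was not called without induced HE array 2 or 3 or induced HE2 array 1 or 2. From HE2 to progenitors with Dox the 5 became 3 with an offset of 50, 75th percentile scaling, the deposited values and either block, 1 in the fit of only those groups, and 3 to 5 without 1 array. The offset of 50 gave Itgax 0.79 there. For HE2 against HE the 1 call became 0 at an adjusted P of at most 0.05, in the smaller fit and with the replicate number as a block (under either numbering), 2 with scan day as a block, as Itgax was also called, and 0 to 1 without 1 array. For progenitors against HE2 there were 0 to 1, with 1 when induced HE2 array 2 was left out.

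The replicate number as a block also ended the call of Itga4 from progenitors to myeloid progenitors (1.47) and from HE2 to progenitors with Dox (1.34), and ended no other call than these and the Itgb7 difference. The correlations of same-numbered induced and uninduced arrays ran from -0.535 to 0.694, so the numbers of the scanner files gave no steady pairing. Pairing under the numbers of the deposited log2 table was not examined in this way.

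Over all genes, the slide block called 574 in place of 2118 genes from progenitors to myeloid progenitors (582 with scan day), 331 in place of 567 with Dox in progenitors (349 with scan day), 741 in place of 1119 from HE2 to progenitors with Dox and 64 in place of 98 for progenitors against HE2. Fits of only the groups compared called 636 in place of 1078 with Dox in HE, 718 in place of 1098 in HE2, 216 in progenitors, 465 in place of 770 from HE to HE2, 286 in place of 471 with Dox, 423 from HE2 to progenitors with Dox, and 126 in place of 203 and 46 in the differences of response. The adjusted threshold called 133 and 22 in those differences. With 75th percentile scaling the median of all genes was -0.194 and -0.15 with Dox in progenitors and myeloid progenitors and -0.247 between them without Dox. The causes were not tested. Spots near background, as for Itgax in HE and HE2, carry compressed changes.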

Other observations

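The unfitted array of uninduced progenitors, on slide 3, read 8.62 for Itgb7, 12.43 for Itga4, 10.51 for Itgb2, 8.17 for Itgal, 7.06 for Itgax, 13.93 for Itga6, 9.20 for Itga5 and 7.97 for Itgav on the log2 intensity scale. The fitted arrays of that group, on slides 1 and 2, lay at 9.41 and 9.35 for Itgb7, 11.60 and 11.96 for Itga4 and 10.19 and 9.84 for Itga5.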
